A study of Homo sapiens with 12 samples.

Results

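*OTX1*, *OTX2*, *SIX3*, *SIX6*, *RAX*, *ZIC1*, *ZIC2* and *HESX1* encode transcription factors of the anterior neural plate, and they were followed here by name in cerebral organoids (COs) with and without an edited *c-JUN* gene. Of the 8 genes, 7 were among the 10976 genes with values, and *HESX1* was not analysed here. *SIX6* stayed under the filter on low values that is given below, so that 6 genes could be tested.

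The anterior neural plate is the front end of the early neural tissue, from which the forebrain and the eyes arise. OTX2 and its relative OTX1 are homeodomain proteins that set up forebrain and midbrain territory. SIX3 holds the most anterior identity by repressing WNT signalling, RAX and SIX6 act in the eye field and later in retina and hypothalamus, and HESX1 is an anterior repressor. ZIC1 and ZIC2 are zinc finger proteins of the dorsal and medial neural plate and of the dorsal midline that follows from it. Signals such as WNT, FGF and retinoic acid push neural tissue towards posterior fates, and secreted antagonists from the head organizer keep them away from the anterior end.

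H1, an established line of human embryonic stem cells, gave the WT COs, and the KO COs came from KO#2 and KO#10, each a single H1 clone in which CRISPR-Cas9 had been aimed at *c-JUN*. All lines went through the same unguided CO protocol, with no further agent, and were collected on day 12 and on day 24. There were 2 libraries for each line and day, which made 2 WT and 4 KO libraries on each day and 12 in all, and each library held RNA of 3 to 4 pooled COs. Nothing in the labels says that the 2 libraries of a line came from separate cultures, so that *p*-values measure only the spread between these libraries, which may be technical.

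The deposited values are whole-number scores whose median (17) and highest value are the same in all 12 libraries. They are already normalized, their depth is unknown, and whether they are scaled by gene length is not given, so that each gene was compared only with itself. Libraries labelled KO had more, not less, mRNA of *c-JUN* itself (*JUN* in the gene list). Its day 12 scores were 4 and 8 for WT against 13 to 19 for KO (adjusted *p* = 0.131), its day 24 scores were 13 and 15 for WT against 29 to 39 for KO, where it was called higher (log2 fold change of 1.25, adjusted *p* = 0.0184), and every direction given here rests on the labels. All 7 neural progenitor markers had values, with summed scores of 528 to 703 in WT and 817 to 1070 in KO over both days. At day 24 the largest part of each sum was *VIM*, at 316 and 354 in WT and 550 to 748 in KO. On that day *SOX1*, *PAX6* and *NES* were also higher in every KO library than in WT. *SOX2* (56 and 44 in WT, 34 to 73 in KO), *FABP7* (200 and 29, 30 to 108) and *HES5* (36 and 22, 19 to 110) overlapped between the genotypes. At day 24 the WT libraries also held summed endoderm markers of 5684 and 5745 (4 of 9 listed genes had values) and summed mesenchyme markers of 2070 and 2443 (6 of 7). The KO libraries held 18 to 57 and 134 to 168, except for KO#10 replicate 1 with 923 and 2890, so that this library stood apart from the other KO libraries. The endoderm sums of WT and of that library were mostly *AFP*, which was at the highest score that any library held in both WT libraries and at 902 in KO#10 replicate 1. *EOMES*, which cortical progenitors also express, went the other way, with 1 and 7 in WT and 2 to 19 in KO.

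The sequences before the RefSeq starts of the genes were searched for TGANTCA, where N is any base, as a loose pattern for sites of the AP-1 factor. c-JUN is a subunit of that factor. RefSeq (GRCh38.p14) held such windows for 7 of the 8 genes, all but *SIX3*, and windows of 5 genes are printed here. *OTX2* and *HESX1* had 2 windows each, and only the first of *OTX2* is printed. Each window is the 250 bases before a start, from 5′ to 3′ on the strand of the gene. Capitals mark matches on either strand to any of 4 motifs, which are AP-1 (TGANTCA), the cAMP response element (TGACGTCA), the site of bicoid-class homeodomains such as OTX2 (TAATCC) and the CCAAT box (CCAAT). None of the 4 motifs contains another.
OTX1, chr2:63050580-63050829, plus strand: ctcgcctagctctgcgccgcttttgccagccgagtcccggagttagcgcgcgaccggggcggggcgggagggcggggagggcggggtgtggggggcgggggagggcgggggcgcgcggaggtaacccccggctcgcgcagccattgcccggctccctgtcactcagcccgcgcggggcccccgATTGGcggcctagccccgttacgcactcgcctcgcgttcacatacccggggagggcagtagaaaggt
OTX2, chr14:56810480-56810729, minus strand: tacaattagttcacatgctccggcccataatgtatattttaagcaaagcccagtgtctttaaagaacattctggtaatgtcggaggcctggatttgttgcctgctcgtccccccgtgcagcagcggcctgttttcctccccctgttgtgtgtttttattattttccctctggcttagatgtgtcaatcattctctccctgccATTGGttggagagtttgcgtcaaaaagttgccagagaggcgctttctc
SIX6, chr14:60508896-60509145, plus strand: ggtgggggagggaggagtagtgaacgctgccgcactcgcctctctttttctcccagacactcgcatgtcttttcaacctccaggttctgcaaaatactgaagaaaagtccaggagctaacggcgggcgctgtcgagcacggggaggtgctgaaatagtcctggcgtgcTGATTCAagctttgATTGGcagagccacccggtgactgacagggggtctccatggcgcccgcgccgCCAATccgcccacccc
RAX, chr18:59273455-59273704, minus strand: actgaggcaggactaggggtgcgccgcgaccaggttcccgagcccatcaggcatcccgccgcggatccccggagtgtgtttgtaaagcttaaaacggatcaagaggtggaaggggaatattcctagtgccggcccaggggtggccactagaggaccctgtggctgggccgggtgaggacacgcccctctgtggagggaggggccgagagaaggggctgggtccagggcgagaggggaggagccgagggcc
ZIC1, chr3:147409115-147409364, plus strand: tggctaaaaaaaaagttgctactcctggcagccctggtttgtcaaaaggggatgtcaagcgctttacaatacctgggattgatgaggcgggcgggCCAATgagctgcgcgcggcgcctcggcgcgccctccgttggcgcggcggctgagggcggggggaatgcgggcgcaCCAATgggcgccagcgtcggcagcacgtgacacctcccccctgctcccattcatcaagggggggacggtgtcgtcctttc
The only match to the AP-1 pattern in the windows of these 7 genes lay in that of *SIX6*, 82 to 76 bases before its start. It reads TGATTCA, and 6.57% of all 35116 windows of this length held a match to the loose pattern. CCAAT boxes stood in the windows of *OTX1*, *OTX2*, *SIX6*, *ZIC1* and *HESX1*, and in 32% of all windows. The RAX and ZIC2 windows held no match to any of the 4 motifs, and none of the 7 genes had a match to the cAMP response element (1.65% of all windows) or to the bicoid-class site (5.62%). These matches describe letters only, since no binding was measured here. The GC content of the printed windows ran from 47.2% in *OTX2* to 75.2% in *OTX1*, against a median of 58% over all windows.

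The listed intervals of the 7 genes overlap those of the same genes on the human build GRCh38 (GENCODE release 29), and 3 are identical to them. *OTX1* (ENSG00000115507) was listed on chromosome 2 from 63050057 to 63057836, *SIX3* (ENSG00000138083) on chromosome 2 from 44941702 to 44946071, and *RAX* (ENSG00000134438) on chromosome 18 from 59267035 to 59274086. *OTX2* (ENSG00000165588) lay on chromosome 14 from 56799905 to 56816693, and *SIX6* (ENSG00000184302) on the same chromosome from 60509146 to 60512850. *ZIC2* (ENSG00000043355) lay on chromosome 13 from 99981784 to 99986765. *ZIC1* (ENSG00000152977) was listed on chromosome 3 from 147393422 to 147510293, an interval that shares 13388 bases with *ZIC4* on the opposite strand. *OTX2* and *SIX3* likewise overlap *OTX2-AS1* (3511 bases) and *SIX3-AS1* (215 bases) on the other strand. *SIX6* overlaps *C14orf39*, also on the other strand, over its whole listed length of 3705 bases. The libraries were strand-specific, but whether the counting used the strand is not given in the sources used here, and without it reads of such partners cannot be told apart.

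**Figure D1:**
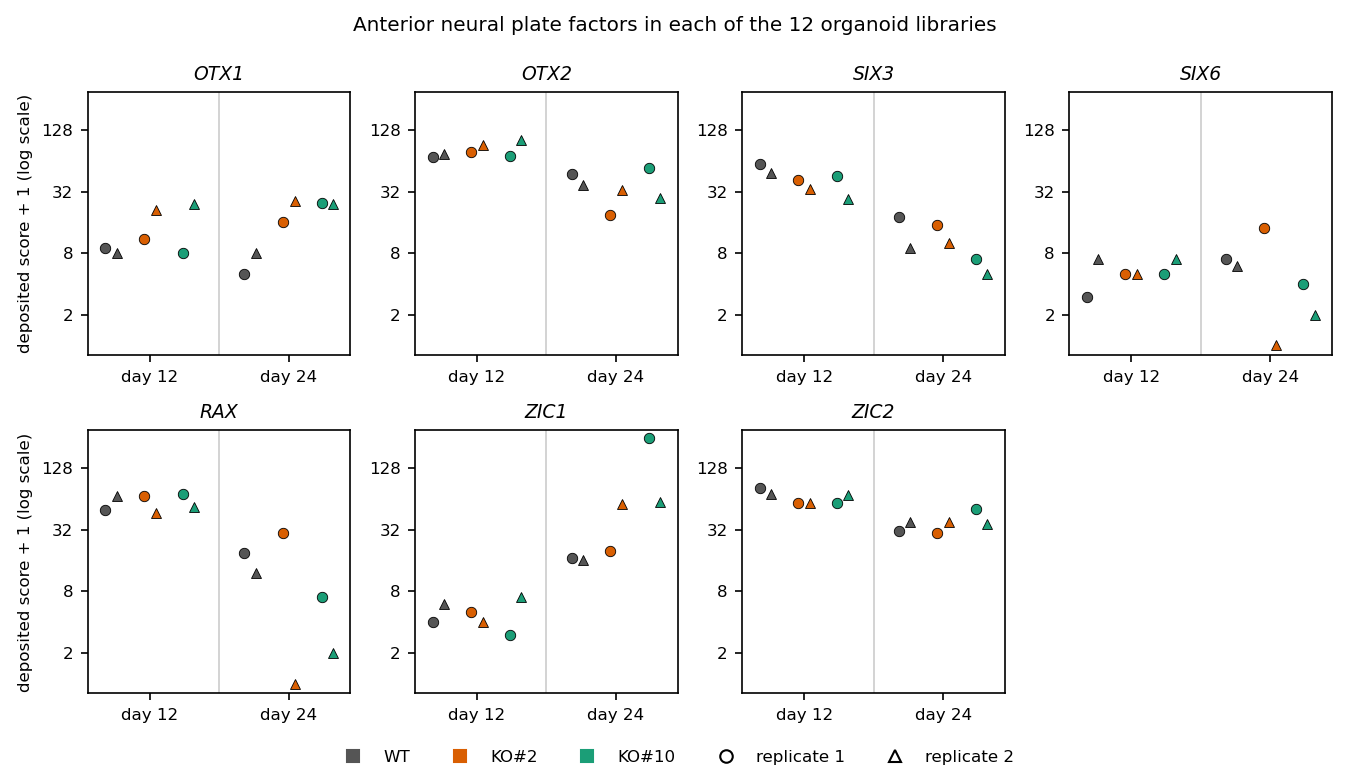
Score + 1 (log scale) of the 7 genes with values in each of the 12 libraries, by day, with the line in colour and the replicate number by symbol. SIX3 and RAX were at 26 to 70 in all libraries of day 12 and at 0 to 29 at day 24, ZIC1 went the other way, and OTX1 separated the KO libraries from WT at day 24.

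The first comparison was KO against WT at day 24, which asked which of these genes differed between edited and unedited COs at the later day. *OTX1* was higher in KO, and it was the only gene of the 8 that was called. A call needs an adjusted *p* under 0.05 and at least a 2-fold change in limma on log2(score + 1), which held for 1 of the 6 genes tested against 8.01% of all 9289 genes tested. Since the RNA came from whole COs, fewer cells of a type and less RNA per cell cannot be told apart in any of these values.

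*OTX1* was at 4 and 7 (WT), 15 and 25 (KO#2) and 24 and 23 (KO#10) in the libraries of day 24. The groups did not overlap. The mean score was 21.8 ± 4.57 in KO (SD, n = 4) and 5.5 ± 2.12 in WT (SD, n = 2), a log2 fold change of 1.82 ± 0.27 (SE) with an adjusted *p* of 0.0196. *OTX1* passed the filter on low values, a score of at least 10 in at least 2 libraries, through its KO libraries alone, and with no such filter its adjusted *p* was 0.0202. The call depended on single libraries, because it was lost without WT replicate 1 (adjusted *p* = 0.0746), WT replicate 2 (0.201), KO#2 replicate 2 (0.0665) or KO#10 replicate 2 (0.0695), while the log2 fold change stayed between 1.48 and 2.16. Without KO#10 replicate 1, the library that stood apart, it was 1.77 with an adjusted *p* of 0.0116.

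*OTX2*, the other gene of this family, was not called. It was at 47 and 36 (WT), 18 and 32 (KO#2) and 53 and 27 (KO#10), so that the KO libraries lay on both sides of WT. The log2 fold change was -0.43, with a 95% interval from -1.33 to 0.46 and an adjusted *p* of 0.427.

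The eye field genes spread widely among the KO libraries. *RAX* was at 18 and 11 (WT), 29 and 0 (KO#2) and 6 and 1 (KO#10), which put KO#2 replicate 1 above both WT libraries and the other 3 KO libraries below them. Its log2 fold change of -1.74 had a 95% interval from -4.69 to 1.22 (adjusted *p* = 0.339), which allows both a large fall and a 2-fold rise. *SIX6*, which was too low to be tested, showed the same order, with 6 and 5 (WT), 13 and 0 (KO#2) and 3 and 1 (KO#10). *SIX3* was at 17 and 8 (WT), 14 and 9 (KO#2) and 6 and 4 (KO#10). Both KO#10 libraries lay below WT and both KO#2 libraries within its range, and the log2 fold change over both clones was -0.58 with an interval from -1.71 to 0.55 (adjusted *p* = 0.402).

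Neither ZIC gene was called at day 24. *ZIC1* was at 16 and 15 (WT), 19 and 56 (KO#2) and 250 and 59 (KO#10). All 4 KO libraries lay above WT, but they ranged from 19 to 250, and the log2 fold change of 1.96 ± 0.85 (SE) did not pass the test (adjusted *p* = 0.138). Without KO#10 replicate 1, which held the score of 250, it was 1.31 with an adjusted *p* of 0.0922. *ZIC2* was at 30 and 37 (WT), 29 and 37 (KO#2) and 50 and 35 (KO#10), and its log2 fold change of 0.15 had an interval from -0.37 to 0.67. A score in every KO library beyond both WT libraries, as for *OTX1* and *ZIC1*, was found for 44% of all genes tested at day 24.

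Markers of other cell types had summed scores that also differed between the genotypes at day 24. Summed scores of the pluripotent cell markers (9 of 11 listed genes had values) were 509 and 969 in WT and 58 to 88 in KO, those of the choroid plexus (3 of 5) were 468 and 502 in WT and 35 to 156 in KO, and those of neurons (7 of 7) were 152 and 297 in WT and 332 to 1911 in KO. The retina and pigment epithelium markers (4 of 8) summed to 65 and 66 in WT and 104 to 190 in KO. Most of the WT sums was *PMEL* (49 and 50), which was at 98 in KO#2 replicate 1, where the sum was 152. No listed marker of these lists was at 0 in every library of either genotype at day 24, and the part of these cells in the values of *OTX1* and *ZIC1* was not tested.

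**Figure D2:**
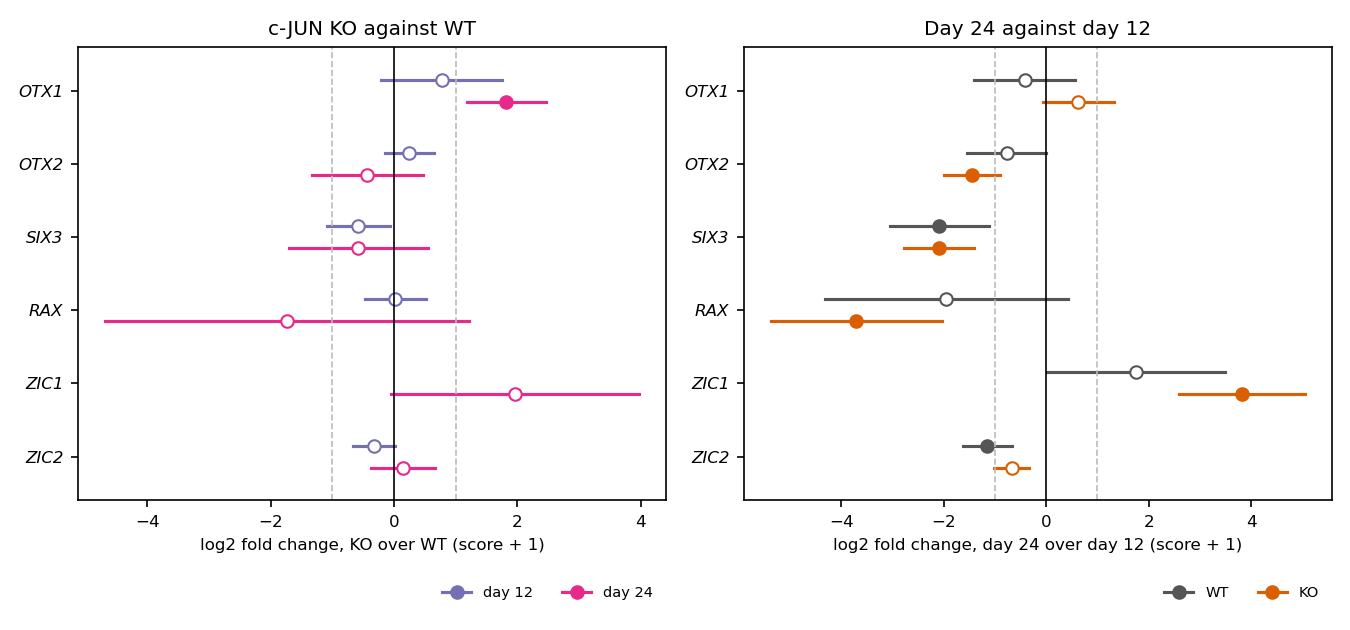
Log2 fold changes of the tested genes with 95% intervals, for KO over WT on each day (left) and day 24 over day 12 in each genotype (right), with filled points for called genes and dashed lines at 2-fold. On the left, OTX1 at day 24 is the only filled point, and on the right SIX3 is filled in both genotypes with a log2 fold change of -2.09 in each.

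KO#2 and KO#10 were then set against each other, to see whether the clones differed. In limma, none of the 6 genes tested at day 24 was called between the clones, as for 0% of all genes (79 of 9289 at an unadjusted *p* under 0.05 and 2-fold). *SIX3* was the single gene of the 6 with an unadjusted *p* under 0.05 (log2 fold change of 1.05 for KO#2 over KO#10, adjusted *p* = 0.825). *ZIC1* was lower in KO#2 by a log2 fold change of -1.86, with an interval from -3.75 to 0.03.

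Each clone was also compared with the same 2 WT libraries, so that these values are not independent. *OTX1* was called in KO#2, its log2 fold change being 1.69 with an adjusted *p* of 0.0375, where 8.99% of all genes were called. In KO#10 its log2 fold change was 1.95, but its adjusted *p* was 0.0903, in a comparison that called 0.28% of all genes and none of the 6. *ZIC1* had log2 fold changes of 1.03 in KO#2 and 2.90 in KO#10, with adjusted *p*-values of 0.358 and 0.120.

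At day 12 the same comparison gave no call among these genes. In limma, none of the 5 genes tested was called, against 0.09% of all 8885 genes (8 genes, or 71 with the replicate number as a block), and 1 of the 5, *SIX3*, had an unadjusted *p* under 0.05. *ZIC1* (2 to 6 in all libraries) and *SIX6* (2 to 6) were too low to be tested.

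*SIX3* was at 59 and 48 (WT), 41 and 33 (KO#2) and 44 and 26 (KO#10). All KO libraries were below WT, with means of 36.0 ± 8.12 (SD, n = 4) and 53.5 ± 7.78 (SD, n = 2) and a log2 fold change of -0.58 ± 0.22 (SE, adjusted *p* = 0.382, or 0.0761 with the replicate block). *ZIC2* was at 81 and 70 (WT), 57 and 57 (KO#2) and 57 and 69 (KO#10), again without overlap, and its log2 fold change was -0.33 (adjusted *p* = 0.469). Such groups without overlap made up 16.6% of all genes tested at day 12.

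*RAX* did not separate the genotypes at day 12, at 49 and 67 (WT), 68 and 46 (KO#2) and 70 and 52 (KO#10). Its log2 fold change of 0.02 had an interval from -0.48 to 0.52, which excludes a 2-fold difference in either direction. *OTX2* was at 69 and 73 (WT), 78 and 91 (KO#2) and 71 and 101 (KO#10), with a log2 fold change of 0.25 and an interval from -0.14 to 0.64. *OTX1* was at 8 and 7 (WT), 10 and 20 (KO#2) and 7 and 23 (KO#10), so that replicate 2 of each clone was high and replicate 1 was close to WT.

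Libraries also differed by replicate number. In all 3 lines at day 12, replicate 2 was above replicate 1 in *OTX2* and below it in *SIX3*. Over the 6 libraries of day 12, Pearson's *r* of log2(score + 1) was 0.971 between *OTX1* and *OTX2*, -0.961 between *OTX2* and *SIX3* and -0.892 between *OTX1* and *SIX3*. These are descriptions over libraries that share their replicate number. At day 24 replicate 2 was below replicate 1 in all 3 lines for *RAX*, *SIX3* and *SIX6*, in WT as in both clones. The *r* between *OTX1* and *OTX2* on that day was -0.259 over 6 libraries, and that between *RAX* and *SIX6* was 0.989.

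The second question was how the genes changed from day 12 to day 24. In the KO libraries 4 of the 6 genes tested were called, 3 lower and 1 higher, against 11.5% of all 9952 genes, and every day 24 library lay beyond every day 12 library for 5 of the 6, against 31.6% of all genes. In WT, with 2 libraries a day, 2 of the 6 were called, both lower, against 15.1% of all genes.

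*SIX3* fell in both genotypes. Its score went from 59 and 48 to 17 and 8 in WT and from 26 to 44 to 4 to 14 in KO, and the log2 fold change was -2.09 in each, with adjusted *p*-values of 0.00590 in WT and 0.000496 in KO. In WT the call was lost without replicate 1 of day 12 (adjusted *p* = 0.0510) or replicate 2 of day 24 (0.0628).

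*RAX* fell in KO, from 46 to 70 at day 12 to 0 to 29 at day 24, a log2 fold change of -3.71 (SE 0.77, adjusted *p* = 0.00307). In WT it went from 49 and 67 to 18 and 11, again without overlap, with a log2 fold change of -1.95 that was not called (adjusted *p* = 0.193). That comparison borrows its spread from all 12 libraries, and with the 4 WT libraries alone, or without KO#2 replicate 1 of day 24, its adjusted *p* was 0.0368 and 0.0415. *SIX6* was too low to be tested, and its scores were 2 to 6 at day 12 and 0 to 13 at day 24.

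*OTX2* fell in KO from 71 to 101 at day 12 to 18 to 53 at day 24, a log2 fold change of -1.45 (adjusted *p* = 0.00109). In WT it went from 69 and 73 to 47 and 36, with a log2 fold change of -0.77 and an adjusted *p* of 0.119. *OTX1* was not called over time in either genotype, with log2 fold changes of -0.42 in WT and 0.62 in KO (adjusted *p* of 0.498 and 0.141).

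*ZIC1* rose in KO from 2 to 6 at day 12 to 19 to 250 at day 24. The log2 fold change was 3.83 (SE 0.57, adjusted *p* = 0.000452). It passed the filter through the libraries of day 24 alone, and its adjusted *p* was 0.000529 with no filter. Without KO#10 replicate 1 of day 24 it was 3.18 with an adjusted *p* of 0.000123. In WT it went from 3 and 5 to 16 and 15, with a log2 fold change of 1.75 that was not called (adjusted *p* = 0.117), but was called with the 4 WT libraries alone (0.0352), without KO#2 replicate 1 of day 24 (0.0471) or without KO#10 replicate 1 of day 24 (0.0202). *ZIC2* went the opposite way. It fell in WT from 81 and 70 to 30 and 37, a log2 fold change of -1.15 (adjusted *p* = 0.00356). In KO it went from 57 to 69 to 29 to 50, and that log2 fold change of -0.68 had an adjusted *p* of 0.00536 but stayed under 2-fold.

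Whether these changes differed between genotypes was tested as the interaction of genotype and day. In limma, none of the 6 genes was called, against 1.31% of all 9952 genes tested, and none of the 6 had an unadjusted *p* under 0.05. The interaction was 2.08 for *ZIC1* on the log2 scale (95% interval from -0.06 to 4.21, adjusted *p* = 0.245), 1.05 for *OTX1* (-0.15 to 2.25, adjusted *p* = 0.294) and -1.76 for *RAX* (-4.66 to 1.15, adjusted *p* = 0.482). For *SIX3* it was near 0, with an interval from -1.19 to 1.19. For each of these 4 genes the interval held both 0 and a 2-fold difference between the genotypes.

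In rising order of mean, *OTX1* went from WT day 24 (5.5) over WT day 12 (7.5) and KO day 12 (15.0) to KO day 24 (21.8), and the libraries of each pair of neighbours touched or overlapped. *OTX2* went from KO day 24 (32.5) and WT day 24 (41.5), which overlapped, to WT day 12 (71.0) and KO day 12 (85.2), which also overlapped. *RAX* went from KO day 24 (9.0) and WT day 24 (14.5) to WT day 12 (58.0) and KO day 12 (59.0), with overlap within each day only. *SIX3* went from KO day 24 (8.25) and WT day 24 (12.5), which overlapped, to KO day 12 (36.0) and WT day 12 (53.5), which did not. *ZIC2* had WT day 24 (33.5) and KO day 24 (37.8), which overlapped, below KO day 12 (60.0) and WT day 12 (75.5), which did not. *ZIC1* had KO day 12 (3.75) and WT day 12 (4.0), which overlapped, below WT day 24 (15.5) and KO day 24 (96.0), which did not. The group means of *SIX6* lay between 4.0 and 5.5, and all overlapped.

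Genes that work beside these factors were taken from 4 lists. Of the 16 forebrain and eye field partners, 13 were tested at day 24, of which 4 were called higher in KO and 0 lower, against 8.01% of all genes. *EMX2*, *FEZF2* and *SOX1*, which are 3 of the 4, passed the filter through their KO libraries alone, so that this count leans towards genes that are high in KO. With no filter all 16 could be tested. The 4 genes were called higher again, *POU3F1* was called lower (adjusted *p* = 0.0404), and the median log2 fold change was 0.85, against 7.61% called and a median of 0.04 over all 10971 genes. *EMX2*, a factor of the dorsal telencephalon, was at 6 and 4 in WT against 15 to 60 in KO, and its log2 fold change was 2.38 (adjusted *p* = 0.0385, or 0.0437 with no filter). *FEZF2*, which specifies deep-layer cortical neurons, was at 1 and 3 in WT against 11 to 36 in KO, and its log2 fold change was 2.93 (adjusted *p* = 0.0206, or 0.0218 with no filter).

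*PAX6*, a factor of eye field and cortical progenitors, was at 40 and 34 in WT against 73 to 106 in KO, and its log2 fold change was 1.15 (adjusted *p* = 0.0206). *SOX1*, a factor of neural progenitors, was at 4 and 1 in WT against 6 to 12 in KO, and its log2 fold change was 1.79 (adjusted *p* = 0.0448, or 0.0432 with no filter). These calls depended on the libraries in the fit. Without KO#10 replicate 1, there were 8 higher (among them *EMX2*, *FEZF2*, *LHX2*, *NR2E1*, *PAX6*, *SOX1* and *SOX3*) and 1 lower (*TBX3*), without KO#2 replicate 1 only *FEZF2* and *PAX6* were called, and without any 1 of the other 4 libraries none was.

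**Figure D3:**
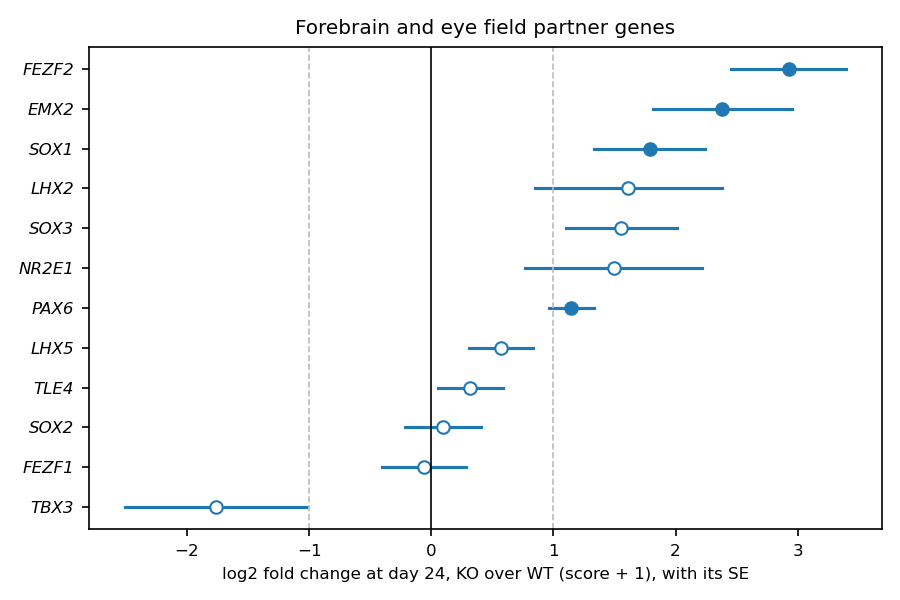
Log2 fold changes at day 24, KO over WT, of 12 of the 13 tested forebrain and eye field partners, with their SE as bars, filled points for called genes and dashed lines at 2-fold. FEZF2, EMX2, SOX1 and PAX6 are filled, from 2.93 to 1.15, and TBX3 is the only gene below -1.

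With time, 4 partners fell in both genotypes. Of 14 tested, *FEZF1*, *POU3F1*, *SOX2* and *TLE4* were called lower and *TBX3* higher at day 24 in WT and in KO alike, and *EMX2* was called higher in KO, which made 5 of 14 in WT and 6 of 14 in KO against 15.1% and 11.5% of all genes. *TBX3*, which acts in hypothalamus and mesoderm, was at 0 or 1 in all libraries of day 12 and at 10 and 15 (WT), 2 and 2 (KO#2) and 12 and 1 (KO#10) at day 24, so that it passed the filter through day 24 alone (adjusted *p* with no filter of 0.00905 in WT and 0.0236 in KO). *TBX3* was no longer called in WT without any 1 of the 4 WT libraries, nor in KO without any 1 library except KO#10 replicate 2 of day 24. *POU3F1*, a factor of early neural induction, fell from 14 to 24 at day 12 to 1 to 2 in KO and 9 and 4 in WT, with log2 fold changes of -3.11 for KO (adjusted *p* = 8.3e-06) and -1.73 for WT (0.00461). In WT *FEZF1* and *SOX2* were lost without replicate 1 of day 12 or replicate 2 of day 24, and in KO *SOX2* was lost without KO#10 replicate 1 of day 24.

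Of the 9 family relatives (CRX, the other SIX, ZIC and RAX genes), 6 had values and 5 were tested at day 24. None of the 5 was called between genotypes in limma, against 8.01% of all genes. *ZIC4*, the neighbour of *ZIC1*, was at 3 and 3 (WT), 6 and 11 (KO#2) and 33 and 10 (KO#10), which gave a log2 fold change of 1.73 (adjusted *p* = 0.0766), and it was called without KO#10 replicate 1. From day 12 to day 24, 1 of the 6 relatives tested was called in KO, against 11.5% of all genes. This was *ZIC4*, which was higher at day 24 (log2 fold change of 2.73, adjusted *p* = 0.000561, or 0.000383 with no filter, as it passed through day 24 alone). Over the same days 2 of the 6 were called lower in WT, against 15.1% of all genes. *CRX*, a relative of the OTX genes that acts in photoreceptors, had a log2 fold change of -1.35 (adjusted *p* = 0.00257). *ZIC5* had -1.06 (0.00534) and was no longer called without replicate 1 of day 12 or replicate 2 of day 24. In KO *CRX* fell as well, from 9 to 12 at day 12 to 5 to 7 at day 24. That log2 fold change of -0.75 stayed under 2-fold (adjusted *p* = 0.00414 with no filter), and that of *ZIC5* was -0.37. None of the 6 was called in the interaction of genotype and day, against 1.31% of all genes. *CRX* and *ZIC5* lay between 3 and 25 in all libraries.

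Of 11 secreted antagonists of the head organizer, 7 had values and 6 were tested at day 24. *FST*, which binds activin, was at 24 and 25 (WT), 6 and 3 (KO#2) and 11 and 4 (KO#10). It was the single one of the 6 called, against 8.01% of all genes, and was lower in KO by a log2 fold change of -1.99 (adjusted *p* = 0.0312). Without KO#10 replicate 1, *DKK1* and *FRZB*, both inhibitors of WNT, were called lower as well, and without any 1 of the other 5 libraries none was. The median log2 fold change was -1.06 over these 6 and -0.59 over all 7 with no filter, against 0.01 and 0.04 over all genes. From day 12 to day 24, 5 of 6 were called lower in KO, against 11.5% of all genes (*FRZB*, *FST*, *SFRP1*, *SFRP2* and *SHISA2*, log2 fold changes of -1.11 to -1.85) and 1 in WT, against 15.1% (*SFRP1*, -1.90, lost without replicate 1 of day 12 or replicate 2 of day 24). Without KO#10 replicate 2 of day 24, 3 were called in KO (*SFRP1*, *SFRP2* and *SHISA2*). The comparison in KO held 4 libraries a day and that in WT 2. The log2 fold change was negative for 5 of the 6 in KO and for 4 in WT. None of the 6 was called in the interaction of genotype and day, against 1.31% of all genes.

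Of 18 caudal neural genes only *PAX8* and *HOXB3* had values. *PAX8*, a factor of the midbrain-hindbrain boundary, was at 20 and 11 in WT and 1 to 6 in KO at day 12, and at 1 or 2 in all libraries of day 24. *HOXB3*, a gene of the hindbrain and spinal cord, was at 0 in all libraries of day 12 and at 2 to 7 at day 24. Neither was tested at day 24, and at day 12 *PAX8* had a log2 fold change of -1.94 that was not called (adjusted *p* = 0.275). *HOXB3* was too low to be tested over time. With no filter it was called higher at day 24 in WT (log2 fold change of 2.32, adjusted *p* = 0.00413) and in KO (2.23, 0.000412). Such fits called 14.9% of all genes in WT and 12.5% in KO. From day 12 to day 24 *PAX8* was called lower in WT (log2 fold change of -2.40, adjusted *p* = 0.0142), a call that was lost without any 1 of the 4 WT libraries. It passed the filter through both WT libraries of day 12 alone, and without either of them it could not be tested. The other 16 genes were not analysed here, so that a caudal shift could not be assessed from this list.

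**Figure D4:**
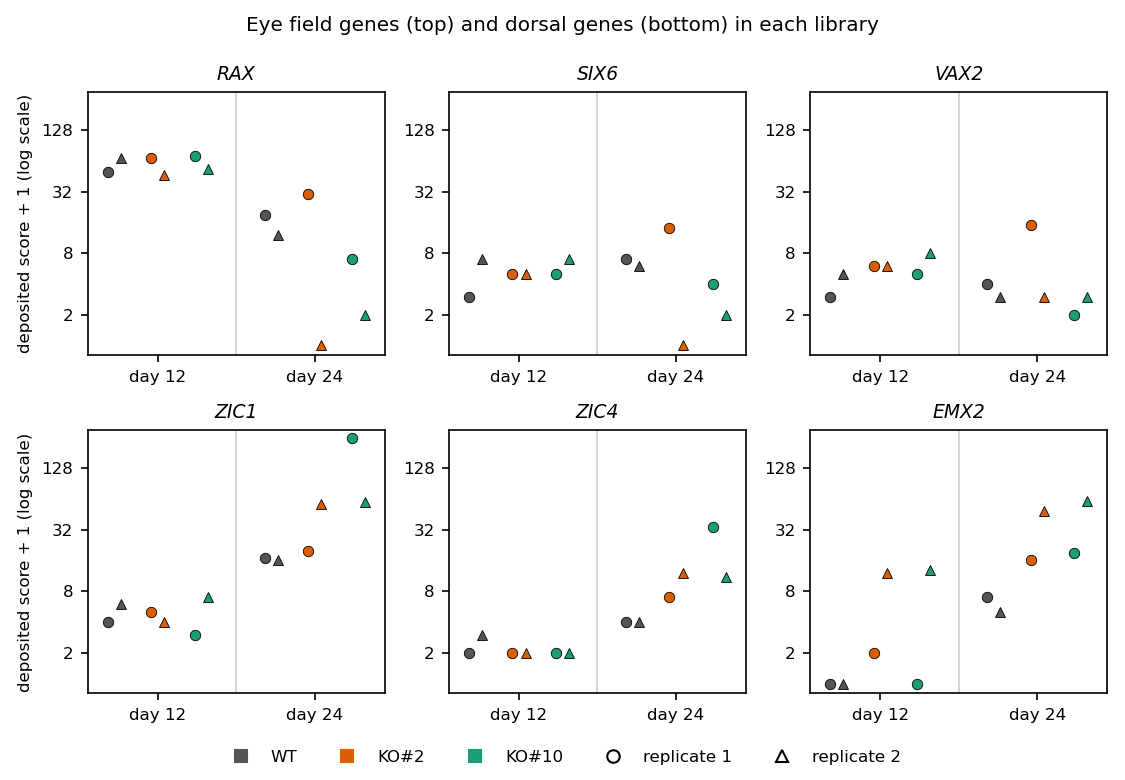
Score + 1 (log scale) of eye field genes (top) and of dorsal genes (bottom) in each of the 12 libraries, by day, with the line in colour and the replicate number by symbol. At day 24 KO#2 replicate 1 is the highest library for RAX, SIX6 and VAX2, and KO#10 replicate 1 is the highest for ZIC1 and ZIC4. EMX2 is highest in KO#10 replicate 2, at 60 against 18 in KO#10 replicate 1.

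At day 24 single KO libraries differed from each other in which of these genes they held, a pattern chosen after the values were seen. KO#2 replicate 1 had the highest score of all 6 libraries for *RAX* (29) and *SIX6* (13). It was also highest for *VAX2*, a gene of the ventral retina, with 14 against 1 to 3 elsewhere, and for *SHISA2*, a WNT and FGF antagonist, with 70 against 11 to 43. KO#2 replicate 2, of the same clone and day, was at 0, 0, 2 and 19 for these 4 genes. Other genes of the eye field were highest elsewhere. *SIX3* was at 17 in WT replicate 1 and 14 in KO#2 replicate 1, and *LHX2* at 77 in KO#10 replicate 2 and 69 in KO#2 replicate 1.

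KO#10 replicate 1 had the highest *ZIC1* (250) and *ZIC4* (33), whose listed intervals overlap, so that these scores may share reads. The dorsal gene *EMX2* went the other way, with 18 in KO#10 replicate 1 and 60 in KO#10 replicate 2. KO#10 replicate 1 differed in other markers too. Its roof plate and cortical hem markers (5 of 7 listed genes had values) summed to 172, against 38 and 59 in WT and 36 to 98 in the other KO libraries. Its mesenchyme and endoderm sums were the high ones given above, and the part of these cells in its *ZIC1* score was not tested.

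The genes most like each factor were found by Pearson's *r* of log2(score + 1) over the 12 libraries among 9951 genes, which share day and genotype, so that *r* is a description only. For *ZIC1* they were *ZIC4* (0.980), *PRPS1* (0.973) and *RMST* (0.959), for *OTX1* they were *ZBTB10* (0.937), *DCT* (0.936) and *CRIM1* (0.921), and for *OTX2* they were *TTC31* (0.948), *C1RL* (0.936) and *NID1* (0.936). The listed intervals of *ZIC1* and *ZIC4* share 13388 bases, so that shared reads may enter their *r*, which was not tested. *SIX3* was close to *ZNF518A* (0.973) and *CPSF4* (0.971), *RAX* to *PKDCC* (0.966), *SPON1* (0.959) and *PRSS23* (0.953), and *ZIC2* to *SNHG4* (0.949), *TTC31* (0.937) and *TONSL* (0.928). Among the 7 genes themselves, *SIX3* and *RAX* had an *r* of 0.855 and *OTX2* and *ZIC2* of 0.849 over the 12 libraries, while *ZIC1* had -0.893 with *SIX3* and -0.817 with *RAX*. The members of each positive pair were high at day 12 and low at day 24, and *ZIC1* was the reverse.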

How the data were processed

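RNA of pooled COs was depleted of ribosomal RNA and sequenced with a strand-specific protocol. For each of 12 libraries the authors deposited scores in whole numbers over 10976 genes, of unknown depth, so that no counting interval can be given. The submitters' processing notes name bcl2fastq, RSEM and Bowtie2 and the mouse build mm10, but all 10976 human gene IDs are in GENCODE release 29 (GRCh38), and 10975 intervals overlap it. The normalization is not given in the sources used here.

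Groups came from the sample labels. Scores were analysed as log2(score + 1), a scale that understates changes of low genes, in limma 3.58.1 (lmFit, eBayes with a trend, R 4.3.3) over all genes that reached a score of 10 in 2 or more libraries of a fit. Benjamini-Hochberg adjustment was applied to two-sided *p*-values over all genes tested. KO against WT and the clones were fitted within a day, the interaction and the days over all 12 libraries. The fits were tested on simulated data. Tables and figures used Python 3.11.15, pandas 2.3.3 and matplotlib 3.10.9.

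The 8 genes and the lists were chosen with earlier results of these data known. Named were all 8 genes, list members that were called, and for each tested gene the 3 others with the highest *r*, besides genes said to be chosen later. Results of some genes that these rules name are not reported here. The lists also covered markers of neural crest (4 of 7 genes had values, summing to 4 to 59), surface ectoderm (2 of 8, 2 to 140) and hypothalamus (*NKX2-1* alone, at 0 in all libraries). Deviations from the group means went together by replicate number at day 12 (*r* across genes of 0.459, 0.429 and 0.598 between lines), but not in all pairs at day 24 (0.212, -0.106 and 0.346). The main fits held no replicate block on either day, and the block was run as an alternative. What the numbers mark is not given in the labels.

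Alternatives were no filter on low values, a pseudocount of 0.1, unadjusted *p*-values, the replicate block, clones as separate groups, all 12 libraries or a single genotype in a fit, and each library left out. Equal library means and a fit without the trend were added after the values were seen.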

Additional observations from a re-analysis of the deposited data

Results flagged for a closer look

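In the 4 KO libraries of a day, a library was singled out when its gap to the nearest of the others took nearly all of the group's range (Dixon's test at 95%). Of 38 such groups, 7 were singled out. Chance would give about 1 in 20 for independent values without ties, a rate that does not hold here, since the scores of *ZIC2* and *SIX6* are tied whole numbers and 4 of the 7 come from 1 library. *ZIC2* at day 12 was at 69 in KO#10 replicate 2 and at 57 in the other 3 libraries, and *SIX6* was at 6 in the same library and at 4 in the other 3. The retina and pigment epithelium markers at day 12 summed to 250 in KO#2 replicate 1 (of which *PMEL* made up 237), against 207 to 210 in the others. At day 24 the other 4 were all KO#10 replicate 1, with summed scores of 2890 for mesenchyme, 923 for endoderm (of which *AFP* made up 902), 156 for choroid plexus and 11 for surface ectoderm markers.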

How the results depend on the processing

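The 4 calls in KO from day 12 to day 24 (*OTX2*, *SIX3*, *RAX* and *ZIC1*) held under every alternative run. In WT the number of the 6 genes called over these days rose from 2 to 4 with the WT libraries alone and ranged from 1 to 4 with a library left out. At day 24 the number called between KO and WT ranged from 0 to 1 with a library left out. Between the clones at day 24 it was 1 at an unadjusted *p*. The replicate block changed no call of the 8 genes, and *OTX1* at day 24 had an adjusted *p* of 0.0284 with it, but the block raised the count over all genes from 8 to 71 at day 12 and from 130 to 315 for the interaction.

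Directions turned only where a difference was not called. Leaving out a library moved the log2 fold change of *RAX* between KO and WT at day 12 between -0.20 and 0.24 and the interaction of *SIX3* between -0.50 and 0.50, which was 0.0103 with equal library means. Between the clones at day 24 the ranges were -0.61 to 0.086 for *OTX1* and -1.90 to 3.00 for *RAX*, which was -0.60 with a pseudocount of 0.1. At day 12 they were -0.66 to 0.93 for *OTX1*, -0.26 to 0.24 for *OTX2*, -0.25 to 0.49 for *SIX3* and -0.38 to 0.17 for *RAX*. The causes were not tested.

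Counts over all genes moved by more than 1.5 times in several fits. At day 24 KO against WT called 744 genes, 1117 with all 12 libraries in a fit and 2 to 1346 with a library left out (for WT 23 and 2 without replicates 1 and 2, for KO#2 263 and 15, for KO#10 1346 and 23). At day 12 it called 8, 3 with no filter, 1 with separate clones, 145 at an unadjusted *p*, 16 without the trend and 1 to 4 with a library left out. The interaction gave 964 at an unadjusted *p* and 11 to 916 with a library left out. From day 12 to day 24 WT had 1500 calls, and 807 and 909 without replicate 1 of day 12 and replicate 2 of day 24. The clones at day 24 had 79 at an unadjusted *p* and 2 without KO#2 replicate 2, and at day 12 they had 7 at an unadjusted *p*. Depth is unknown, so that low scores such as those of *SIX6* have no counting error that could be given here.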
